A study of Mus musculus with 8 samples.

Results

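Bpifa1, Cyp2f2, Cbr2, Muc16 and Reg3g are genes of secretory cells in mucosal epithelium, and their RNA was followed here in the inner ear of mice with and without a mutation of a thyroid hormone receptor. These 5 genes, of 47517 symbols in the count files, were chosen on the comparison described here, because they stood lower in the mutant libraries. Their differences between genotypes are therefore given as a description with no test, and they support nothing further. Whole inner ears of mice at postnatal day 14 were profiled by total RNA sequencing. The wild-type group had 4 samples and the mutant group had 4 samples of heterozygous littermates, which carry a frameshift that alters TRα1, the receptor isoform encoded by Thra. No treatment was given to either group. The tissue label names the inner ear and the series title the cochlea. The labels do not say whether middle ear lining was taken along, whether a sample is 1 animal or a pool, or which samples came from the same litter. A p-value here sets the difference between groups only against how far samples of 1 group differ, and that spread may be partly technical. The counts per symbol do not show the frameshift itself.

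The air-filled middle ear lies against the bony capsule of the inner ear and is lined by a mucosa that resembles that of the airways. In such a lining, club and other secretory cells release antimicrobial proteins and metabolise foreign compounds, goblet cells secrete gel-forming mucins, ciliated cells clear the mucus, and basal cells renew the layer. The sensory hair cells, supporting cells and ion-transporting stria vascularis of the inner ear belong to other epithelia.

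Bpifa1 (chr2:154142880-154149219, plus strand) encodes a secreted protein of the BPI fold, abundant in airway and middle ear fluid, that binds lipid and limits bacterial growth. Cyp2f2 (chr7:27119909-27133660, plus strand) encodes an oxidising enzyme of club cells that converts naphthalene to toxic products. Cbr2 (chr11:120729489-120732114, minus strand) encodes a carbonyl reductase described from lung and used as a club cell marker in mouse. Muc16 (chr9:18495455-18674530, minus strand) encodes a very large mucin that stays anchored in the apical membrane of wet epithelia. Reg3g (chr6:78466269-78468872, minus strand) encodes a secreted lectin that kills Gram-positive bacteria. Positions are those of the GENCODE M21 annotation (GRCm38, which is mm10 under another name), where all 5 are protein-coding. Cyp2f2 shares bases with the predicted gene Gm15883 and Muc16 with Gm25295. Since no source used here gives the strand setting of the counting, reads of such pairs may not have been told apart.

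The members lie on 5 chromosomes, so the sequence before their start sites was compared for short motifs. RefSeq promoter windows (GRCm38.p6) were found for 5 of 5 members, each running from 250 bases before to 50 bases after the annotated start. The 250 bases before the start are printed 5′ to 3′ on the gene's own strand for the 3 members that hold a motif other than the ETS core. They are chr2:154142630-154142879 (plus strand) for Bpifa1, chr7:27119705-27119954 (plus strand) for Cyp2f2 and chr6:78468875-78469124 (minus strand) for Reg3g, with motif matches in capitals.
Bpifa1: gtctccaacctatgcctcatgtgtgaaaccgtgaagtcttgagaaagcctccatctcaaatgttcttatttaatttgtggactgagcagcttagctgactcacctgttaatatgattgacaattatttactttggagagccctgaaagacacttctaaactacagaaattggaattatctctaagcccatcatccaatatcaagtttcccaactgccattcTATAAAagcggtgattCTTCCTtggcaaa
Cyp2f2: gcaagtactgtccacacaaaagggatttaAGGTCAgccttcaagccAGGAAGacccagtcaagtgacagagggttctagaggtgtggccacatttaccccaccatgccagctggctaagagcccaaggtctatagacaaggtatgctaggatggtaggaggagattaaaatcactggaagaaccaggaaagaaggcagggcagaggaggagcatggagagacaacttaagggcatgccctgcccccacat
Reg3g: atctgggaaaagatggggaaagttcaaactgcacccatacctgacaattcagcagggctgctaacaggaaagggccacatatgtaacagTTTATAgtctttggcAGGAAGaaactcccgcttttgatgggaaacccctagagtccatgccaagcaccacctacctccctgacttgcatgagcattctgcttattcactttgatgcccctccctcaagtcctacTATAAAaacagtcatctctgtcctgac

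The motifs were searched on both strands of the whole windows, and none overlapped another in the members. The TATA box (TATAAA) was found in Bpifa1 at -29 and in Reg3g at -27, counted from the start site, with a further match on the opposite strand of Reg3g at -161. Of 32851 RefSeq mouse promoter windows of this length, 13.6% hold it. The core bound by ETS factors (AGGAAG) was present in 5 of 5 members, at -13 on the opposite strand in Bpifa1, -204 in Cyp2f2, -78 in Cbr2, 30 bases past the start on the opposite strand in Muc16 and -146 in Reg3g. It is a common word, held by 35.4% of all windows. The hexamer AGGTCA, the half-site recognised by thyroid hormone receptors and many other nuclear receptors, occurred in Cyp2f2 alone of the 5, at -221, against 16.3% of all windows. A forkhead word (TGTTTAC) was in 0 of 5 members and in 3.65% of all windows. A match describes these letters only and is not a binding site.

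Libraries held 18930841 to 23064578 counts. The unit below is CPM, counts scaled to the normalised library size, and the floor of 3 counts lay between 0.132 and 0.159 CPM. Floors cover counting error only. At least 1 library held a count for 33027 symbols, of which 21392 passed the expression filter of edgeR, which asked for at least 0.482 CPM in at least 4 libraries. All 5 members passed it. Bpifa1 and Reg3g passed it in 4 wild-type and 2 mutant libraries and Muc16 in 4 and 3, so that these 3 passed through the wild-type libraries, where they are high. Cyp2f2 and Cbr2 passed it in 8 of 8.

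Bpifa1, the antimicrobial secretion, was among the well expressed genes of the wild-type libraries and nearly missing from the mutant ones. Wild-type replicates 1 to 4 held 3385, 9877, 3528 and 7310 counts, or 157.2, 518.6, 183.5 and 336.2 CPM. Mutant replicates 1 to 4 held 7, 8, 26 and 14 counts, or 0.307, 0.368, 1.26 and 0.741 CPM. The groups lay far apart, with the lowest wild-type library 124.8-fold above the highest mutant one. Group means were 298.9 ± 166.4 and 0.669 ± 0.438 CPM (SD, n = 4 each), so the mutant mean was 0.224% of the wild-type mean. The log2 fold change (mutant minus wild-type, edgeR) was -8.81 (SE 0.64), and 2 of the tested genes had a more negative one. Each mutant library was above the floor of 3 counts, so a low level of Bpifa1 RNA was counted in 4 of 4 of them. As in any bulk sample, fewer cells of a type and less RNA per cell cannot be told apart.

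**Figure D1:**
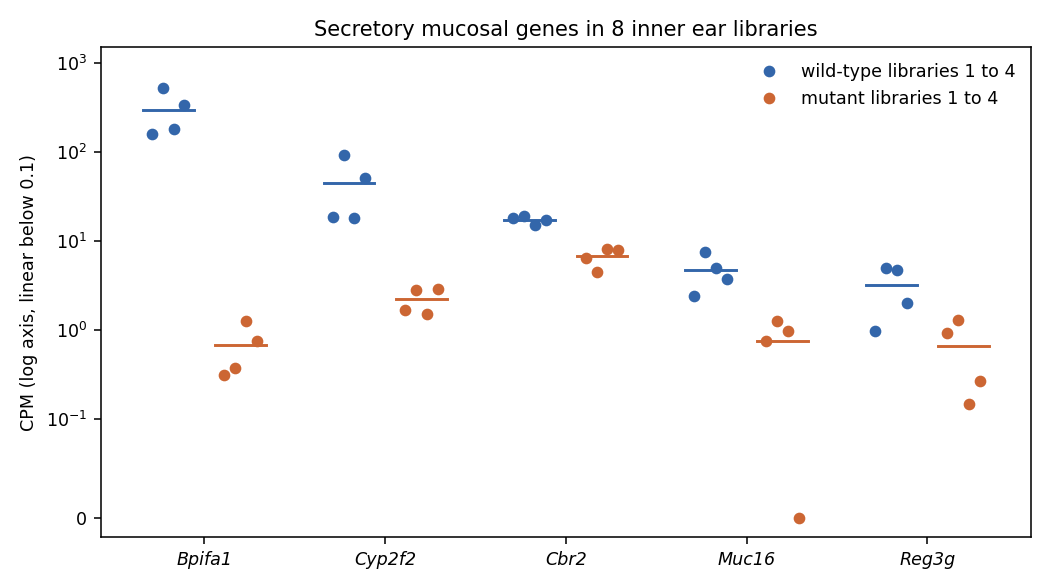
CPM of the 5 members (log axis, linear below 0.1) in the 4 wild-type and 4 mutant libraries, 1 point per library in replicate order from left to right, with horizontal lines at the group means. Wild-type and mutant points do not overlap for Bpifa1, Cyp2f2, Cbr2 and Muc16 and overlap for Reg3g.

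Cyp2f2 and Cbr2, the members that encode enzymes, differed in size of change and in spread. For Cyp2f2, wild-type replicates 1 to 4 read 18.35, 91.94, 18.0 and 50.96 CPM, whereas mutant replicates 1 to 4 read 1.67, 2.81, 1.502 and 2.91 CPM. The wild-type libraries themselves differed 5.11-fold, the mutant libraries lay closer together, and the groups did not overlap. A wild-type mean of 44.81 ± 35.01 CPM stood against a mutant mean of 2.22 ± 0.739 CPM (SD, n = 4 each), a 20.17-fold difference. The log2 fold change was -4.33 (SE 0.66), and -3.71 without wild-type replicate 2.

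Cbr2 was the most even member. Its wild-type libraries read 18.25, 19.16, 14.93 and 17.02 CPM and its mutant libraries 6.41, 4.46, 8.09 and 7.89 CPM. All mutant values lay below all wild-type values, but by a small margin, since the lowest wild-type library was 1.84-fold above the highest mutant one. Means of 17.34 ± 1.83 and 6.71 ± 1.68 CPM (SD, n = 4 each) gave a log2 fold change of -1.37 (SE 0.19), and the mutant mean was 38.7% of the wild-type mean. Bpifa1 and Cyp2f2 were at 0.224% and 4.96% of theirs, so Cbr2 kept a far larger part of its wild-type level.

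Muc16, the membrane mucin, had 51, 143, 95 and 82 counts in wild-type replicates 1 to 4 and 17, 27, 20 and 0 in mutant replicates 1 to 4. In CPM these were 2.37, 7.51, 4.94 and 3.77 against 0.746, 1.24, 0.969 and 0. The groups did not overlap, and mutant replicate 4, with no count, allows up to 0.159 CPM. The wild-type mean was 4.65 ± 2.18 CPM and the mutant mean 0.739 ± 0.533 CPM (SD, n = 4 each). The log2 fold change was -2.63 (SE 0.75).

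Reg3g, the bactericidal lectin, was the lowest member in counts and the only one whose groups overlapped. Wild-type replicates 1 to 4 had 21, 95, 90 and 43 counts (0.975, 4.99, 4.68 and 1.98 CPM) and mutant replicates 1 to 4 had 21, 28, 3 and 5 counts (0.922, 1.29, 0.145 and 0.265 CPM). Wild-type replicate 1 lay below mutant replicate 2, and mutant replicate 3 was at the floor of 3 counts. With means of 3.16 ± 1.99 and 0.655 ± 0.543 CPM (SD, n = 4 each), its log2 fold change of -2.24 (SE 0.73) was the least firm of the 5 by this measure of overlap.

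Read against all genes, the members' differences were at the edge of the distribution, as the choice of members fixes. The expression model called 1 of 5 members, Bpifa1, lower, beside 8 of 21392 genes in all, which is 0.0374% of those tested. In the other direction it called 1 gene, 0.00467% of those tested, and 0 members. DESeq2 called 3 of 5 members lower (Bpifa1, Cyp2f2 and Cbr2) with a background of 0.229%, and limma-voom called 1 of 5, Bpifa1, with a background of 0.0514%. All 5 had an unadjusted p below 0.05 and a negative sign, which 3.09% of tested genes shared, and 4 of 5 had no overlap between the groups with the mutants lower, shared by 1.41%. The same contrast chose the members, so nothing is read from these counts. Without mutant replicate 2, edgeR called 0 of 5.

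Levels between genes can be compared only per length. On the scale of CPM per kilobase of annotated exon, the wild-type means ran from Bpifa1 at 193.5 through Cyp2f2 at 22.13, Cbr2 at 13.07 and Reg3g at 1.49 to Muc16 at 0.176. The wild-type libraries of Bpifa1 (101.8 to 335.7) lay above those of every other member, and those of Cyp2f2 (8.89 to 45.4) and Cbr2 (11.25 to 14.44) overlapped. Cbr2 and Reg3g (0.461 to 2.36) were apart, as were Reg3g and Muc16 (0.0899 to 0.285). In the mutant libraries the order of the means on this scale was Cbr2 at 5.06, Cyp2f2 at 1.10, Bpifa1 at 0.433, Reg3g at 0.310 and Muc16 at 0.0281. The ranges of Bpifa1 (0.199 to 0.815) and Reg3g (0.0688 to 0.609) overlapped there, and those of Cyp2f2 (0.742 to 1.44) and Bpifa1 overlapped at their ends.

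The summed level of the members, in replicates 1 to 4, was 197.2, 642.2, 226.1 and 410.0 CPM for wild-type. For the mutants it was 10.05, 10.16, 11.97 and 11.8 CPM. Bpifa1 supplied between 79.74% and 82.02% of that sum in each wild-type library, although the sum itself varied. In the mutant libraries it supplied between 3.06% and 10.53%, and Cbr2 was the member with the most counts. The ratio of Bpifa1 to Cyp2f2 counts, which needs no normalisation, was 8.57, 5.64, 10.2 and 6.597 in wild-type replicates 1 to 4 and 0.184, 0.131, 0.839 and 0.255 in mutant replicates 1 to 4. The members did not stand lower by a common factor.

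Within the wild-type group, replicate 2 was the highest library for 5 of 5 members, whereas over all tested genes it was the highest for 24.7%. It exceeded the mean of the other 3 wild-type libraries 2.3-fold for Bpifa1, 3.16-fold for Cyp2f2, 2.03-fold for Muc16, 1.96-fold for Reg3g and 1.15-fold for Cbr2. Replicate 1 was the lowest wild-type library for Bpifa1, Muc16 and Reg3g, and replicate 3 for Cyp2f2 and Cbr2. In lists described below, replicate 2 was highest for 6 of 9 tested club and secretory genes and 5 of 7 mucin and goblet genes. It was highest for 8 of 9 antimicrobial, 7 of 11 basal and 9 of 13 ciliated cell genes. Of 18 general epithelial genes it was highest for 7, and of 12 inner ear genes for 2. Wild-type replicate 2 also had the highest level of 9 of 9 neutrophil genes, whose summed level in replicates 1 to 4 was 752.1, 1773, 365.3 and 1155 CPM. The mutant replicates 1 to 4 had sums of 381.3, 1504, 446.5 and 857.2 CPM. Their part in the members' levels was not tested. Mutant replicate 2 was likewise the highest mutant library by this neutrophil sum, and among the members it was the highest mutant library for Muc16 and Reg3g only.

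**Figure D2:**
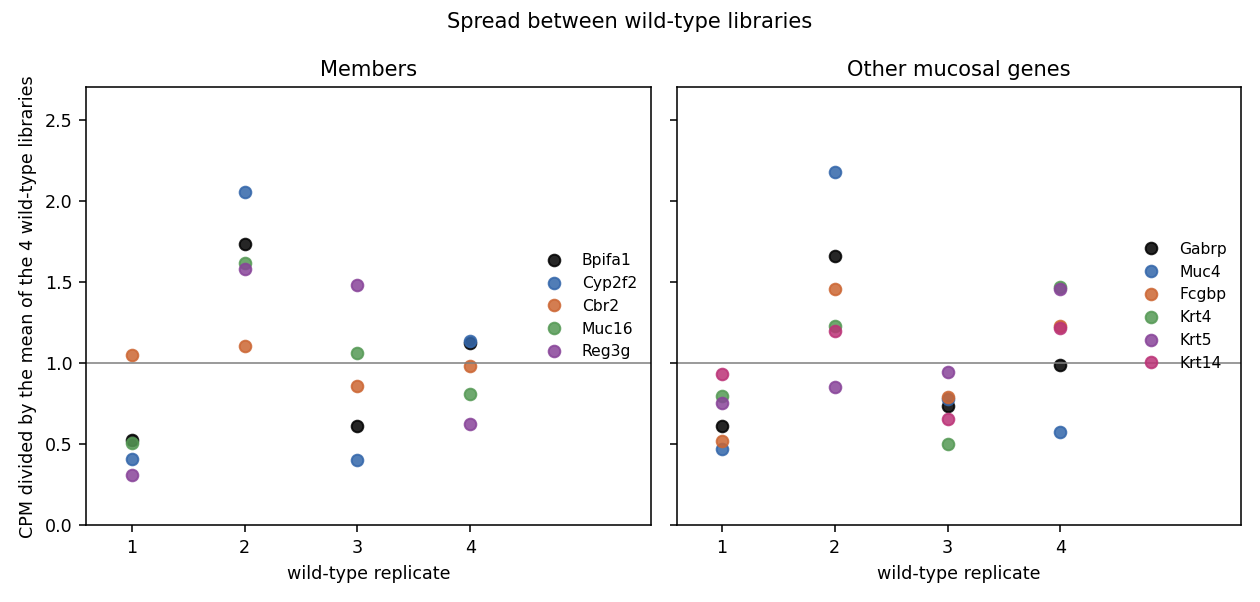
CPM of each gene in each wild-type library divided by its mean over the 4 wild-type libraries (linear axis, 1 point per gene, line at the mean), for the 5 members and for 6 other mucosal genes. Replicate 2 is the highest library for the 5 members and for Gabrp, Muc4 and Fcgbp, and replicate 4 for the keratins Krt4, Krt5 and Krt14. Over the 11 tested genes of the basal cell list, replicate 2 is the highest for 7 and replicate 4 for 4.

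Several genes that define secretory cells of the airway were close to absent in both genotypes, so the members do not stand for a full club or goblet cell signature. Scgb1a1, the secretoglobin that defines club cells, had 8 counts in all wild-type and 17 in all mutant libraries, with at most 6 in any library. The related secretoglobins Scgb3a1 (30 and 31 counts), Scgb3a2 (14 and 22) and Scgb1c1 (10 and 13) were as low. The gel-forming mucins Muc5ac (28 and 20) and Muc5b (21 and 25), the goblet cell regulator Spdef (15 and 18) and the trefoil factors Tff1 and Tff3 (0 and 1 each) were near or at the floor too. At similar counts others of these lists were lower in the mutants, such as the goblet cell regulator Foxa3 (27 and 3, with no overlap of the groups) and Sftpd (22 and 0, from 2 wild-type libraries). Below the filter, fewer counts in the mutants were seen for 4 of 8 club and secretory genes and 5 of 10 mucin and goblet cell genes, and more for the others. The 5 genes are therefore named here by symbol and not as a cell type.

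In the list of 17 other club and secretory cell genes, Gabrp lay farthest from equal levels. Of these 9 passed the filter and 7 had a negative log2 fold change, edgeR called 0 in either direction, and the median was -0.36 against -0.01 over all tested genes. At an unadjusted p below 0.05 stood 2, Gabrp and Aldh3a1, DESeq2 called 1 and limma-voom 0. Of all tested genes 3.09% had such a p with a negative sign, and DESeq2 called 0.229% lower. In the same 2 genes the groups did not overlap, with the mutants lower, shared by 1.41%. For Aldh3a1 the lowest wild-type library was at 11.81 CPM and the highest mutant one at 11.63 CPM. Gabrp, a GABA receptor subunit made by secretory epithelia, had 126, 302, 135 and 205 counts in wild-type replicates 1 to 4 and 10, 0, 0 and 7 in mutant replicates 1 to 4. Its groups did not overlap, and it passed the filter through the wild-type libraries, where it is high. The log2 fold change of -5.52 (SE 0.86) did not pass in edgeR (adjusted p = 0.165) and passed in DESeq2 (adjusted p = 2.48e-11). The detoxifying enzymes Aldh3a1 and Cyp4b1 and the selenium-binding protein Selenbp1 had values of -0.43 (SE 0.14), -0.77 (SE 0.51) and -0.36 (SE 0.16), and did not pass with either tool.

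Among other mucins, Muc4, Muc20 and Muc1 had lower levels in every mutant library, without passing in edgeR, whereas the anchored mucin Muc15 had 1704 counts in all wild-type and 1782 in all mutant libraries. Of 17 other mucin and goblet cell genes 7 passed the filter, 5 were negative, 4 had an unadjusted p below 0.05 and no overlap of the groups, and the median log2 fold change was -1.60. Such a p with a negative sign was shared by 3.09% of all tested genes, and no overlap with the mutants lower by 1.41%. Called lower were 0 in edgeR, 2 in DESeq2 (Muc4 and Fcgbp), with a background of 0.229%, and 0 in limma-voom. Muc4, an anchored mucin of airway and eye, read 1.72, 7.98, 2.86 and 2.12 CPM across wild-type replicates 1 to 4, whereas mutant replicates 1 to 4 read 0.176, 0.506, 0.678 and 0.318 CPM. Its groups were apart by more than the mutant spread, and the log2 difference was -3.11 (SE 0.61; adjusted p = 0.363 in edgeR, 3.94e-04 in DESeq2). In mutant replicates 1 and 4 Muc4 was below the filter's 0.482 CPM, so it passed through the wild-type libraries, where it is high. Fcgbp, a mucus protein that binds immunoglobulin, had means of 4.003 ± 1.69 and 1.17 ± 0.12 CPM (SD, n = 4 each). The log2 difference was -1.77 (SE 0.32; adjusted p = 0.247 in edgeR, 0.00174 in DESeq2). Muc20 and Muc1, which are further anchored mucins, differed by -3.96 (SE 1.10) and by -1.60 (SE 0.51) on the log2 scale. Muc20 had counts in 1 of 4 mutant libraries and passed the filter through the wild-type ones, where it is high. Without wild-type replicate 2 the differences were -2.40 for Muc4, -3.34 for Muc20 and -0.96 for Muc1.

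**Figure D3:**
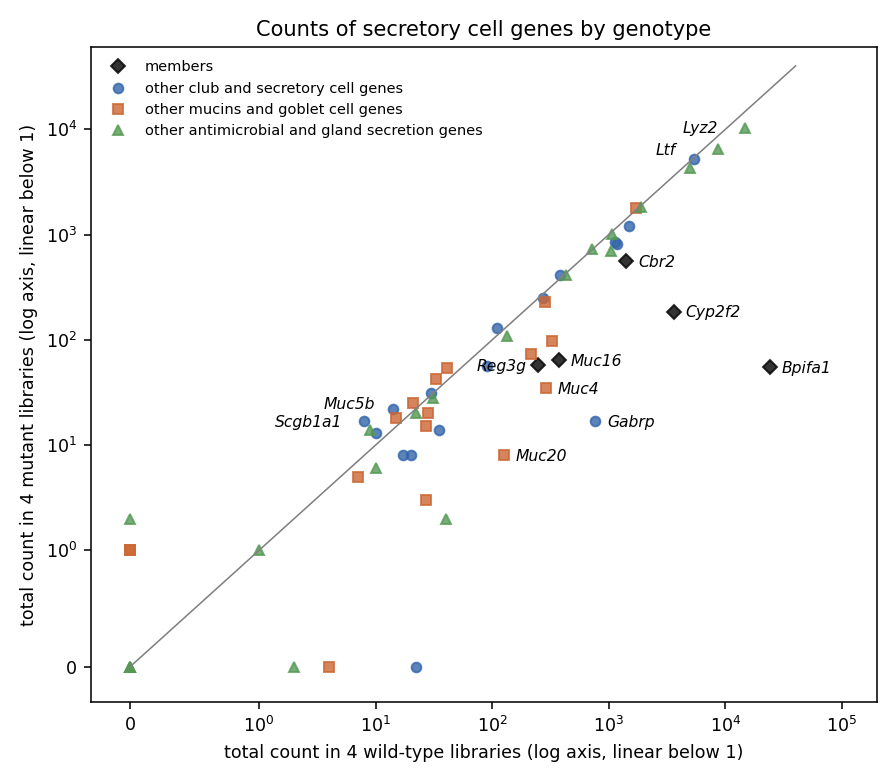
Total count over the 4 mutant libraries against total count over the 4 wild-type libraries for the members and the genes of 3 secretory lists (both axes log, linear below 1, diagonal at equal counts). Bpifa1, Cyp2f2, Cbr2, Muc16 and Reg3g lie below the diagonal with Gabrp, Muc4 and Muc20, whereas Scgb1a1 and Muc5b lie at low counts near it and Lyz2 and Ltf at high counts near it.

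Among the other antimicrobial genes, none of those tested was called in either direction. Of 20 in the list 9 passed the filter, 9 were negative, 0 were called by edgeR, DESeq2 or limma-voom, 0 had an unadjusted p below 0.05, and the median log2 fold change was -0.26. The lysozymes Lyz1 and Lyz2, which digest bacterial walls, had values of -0.62 (SE 0.46) and -0.54 (SE 0.44). The iron-binding Ltf had -0.47 (SE 0.64) and the chitinase-like Chil4 -0.36 (SE 0.58), and both were slightly positive without wild-type replicate 2 (0.06 each). The groups of these 4 genes overlapped. Below the filter, 5 of 11 genes had fewer counts in the mutants and 2 more, and the groups of Defb1, an epithelial defensin, did not overlap (5, 16, 8 and 11 counts in wild-type replicates 1 to 4 against 0, 2, 0 and 0). The neutrophil list, whose cells store several of these proteins, had 9 of 9 genes tested, 9 negative and a median of -0.33 (Mpo, -0.55, SE 0.62, had the smallest p, before Cebpe, S100a9 and S100a8). The macrophage list had 7 tested, 3 negative and a median of 0.04, with Cd68 (-0.34, SE 0.19), C1qb, Cx3cr1 and Mrc1 first by p. In both lists 0 genes were called by edgeR, DESeq2 or limma-voom, and 0 had an unadjusted p below 0.05.

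The keratins Krt5, Krt14 and Krt4 of basal and stratified cells fell in the mutants. Krt5, a keratin of basal cells, had 42, 42, 47 and 82 counts in wild-type replicates 1 to 4 and 2, 1, 0 and 2 in mutant replicates 1 to 4, which is -5.31 on the log2 scale (SE 0.53; edgeR adjusted p = 0.0175). Its partner Krt14 fell by 3.61 on the log2 scale (SE 0.38; edgeR adjusted p = 0.0223) and Krt4, a keratin of moist stratified lining, by 5.84 (SE 0.58; edgeR adjusted p = 0.0175). Their wild-type and mutant libraries did not overlap. Aqp3, the basal cell water channel, had -5.57 (SE 0.76; edgeR adjusted p = 0.0807), and it passed in DESeq2 (1.35e-04) and limma-voom (0.0206). Of 15 genes in the list 11 passed the filter, 11 were negative, 3 were called lower and 0 higher, and the median was -3.61. Over all tested genes edgeR called 0.0374% lower. DESeq2 called 7 of the list lower, Krt15, Upk1b and Col17a1 among them, with a background of 0.229%. For limma-voom it was 3, with a background of 0.0514%. In 7 the groups did not overlap, with the mutants lower, shared by 1.41% of tested genes. Also 7 had an unadjusted p below 0.05 and a negative sign, shared by 3.09%. Not every basal cell gene was far lower. Trp63, the regulator of basal cells, had 7.56 ± 1.38 and 6.57 ± 2.42 CPM (SD, n = 4 each) with overlapping groups. Below the filter, Krt17 had 94 counts in all wild-type and 5 in all mutant libraries and Krt6a had 10 and 1, whereas Krt13 had 5 and 7 and the desmosomal Dsg3 9 and 34. The called keratins were known to be lower when the list was drawn up, and each had 7 or fewer counts in a mutant library. They, Aqp3 and Krt15 were below the filter's 0.482 CPM in each mutant library, and Col17a1 was below it in mutant replicates 1 to 3. These genes passed through the wild-type libraries, where they are high. Leaving out wild-type replicate 2 or 4 or mutant replicate 1 or 2 brought the called genes of the list to 0, and leaving out mutant replicate 3 brought them to 1.

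**Figure D4:**
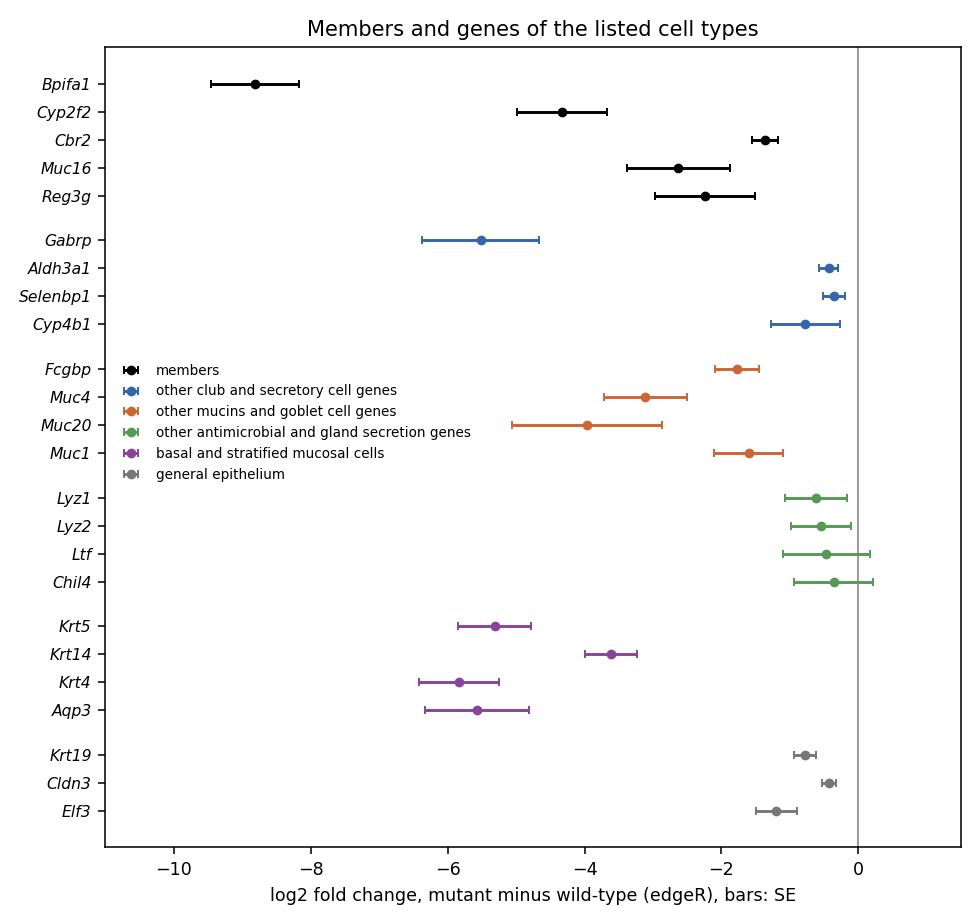
Log2 fold change (mutant minus wild-type, edgeR, bars are 1 SE) of the 5 members and of up to 4 genes of smallest p in each of 5 lists, with a line at 0. Members lie between -8.81 and -1.37, the basal cell genes Krt5, Krt14, Krt4 and Aqp3 between -5.84 and -3.61, and Lyz1, Lyz2, Ltf and Chil4 between -0.62 and -0.36.

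Markers shared by most epithelia, the inner ear's own included, were less far below wild-type. In this list 18 of 18 genes passed the filter, 17 were negative and the median log2 fold change was -0.35. Called were 0 by edgeR or limma-voom and 1 by DESeq2, lower in the mutants, with a background of 0.229%. With a negative sign, 11 had an unadjusted p below 0.05, shared by 3.09% of all tested genes. In 6 the groups did not overlap, with the mutants lower, shared by 1.41%. Krt19, a simple epithelial keratin, had means of 13.9 ± 1.56 and 8.10 ± 1.63 CPM (SD, n = 4 each). The log2 difference was -0.78 (SE 0.17; adjusted p = 0.479 in edgeR, 0.00996 in DESeq2). The tight junction gene Cldn3 had -0.43 (SE 0.10) and the epithelial transcription factor Elf3 -1.20 (SE 0.30). The summed level of the list was between 342.5 and 383.2 CPM in wild-type and between 273.5 and 362.9 CPM in mutant libraries, so the sums overlapped.

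Ciliated cells, the neighbours of secretory cells in such a lining, had no called gene. Of 17 ciliated cell genes 13 passed the filter, 10 were negative, 0 were called by edgeR, DESeq2 or limma-voom, 1 had an unadjusted p below 0.05 (Rsph1, of the ciliary radial spokes, -0.46, SE 0.20) and the median was -0.19. Their summed level was 78.54 to 138.8 CPM in wild-type and 68.88 to 138.5 CPM in mutant libraries. Over all tested genes 3.09% had a negative sign and an unadjusted p below 0.05. Cfap43, Dynlrb2 and Cdhr3 were the next genes of the ciliated cell list by p. Of its 4 genes below the filter, 3 had fewer counts in the mutants and 1 more, and their groups overlapped. Sntn had 18 and 1 counts in all, Tmem212 38 and 19, and Tekt4 34 and 39.

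Markers of lung and nose were counted as well. Of 6 alveolar lung genes 2 passed the filter (Napsa and Ager) and 0 were called, and the surfactant genes Sftpc, Sftpa1 and Sftpb did not pass it. The alveolar list added up to 8.79 to 16.07 CPM in wild-type and 6.45 to 13.52 CPM in mutant libraries. Of 6 olfactory and nasal gland genes 3 passed (Gng13, Omp and Cyp2g1), 0 were called, and the odorant-binding Obp2a had 0 counts. The olfactory list added up to 3.33 to 4.83 CPM in wild-type and 1.65 to 3.95 CPM in mutant libraries. The first genes of these lists by p, Napsa and Gng13, stood at -0.66 (SE 0.49) and -0.66 (SE 0.31) on the log2 scale. The inner ear itself was present in every library. Its 12 marker genes passed the filter, 8 were negative, 0 were called, the median log2 fold change was -0.07, and they added up to 3358 to 4657 CPM in wild-type and 2997 to 4863 CPM in mutant libraries. Kcne1 (-0.34, SE 0.18), Otos, Myo7a and Kcnq1 had the smallest p of that list. In the alveolar, olfactory and inner ear lists, DESeq2 and limma-voom also called 0, and 0 genes had an unadjusted p below 0.05.

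In the families of Bpifa1, Reg3g, Cyp2f2 and Cbr2 no relative was called, whereas of the other mucins described above DESeq2 called Muc4 lower. Bpifa1 belongs to a family of BPI-fold proteins, of which 3 of 15 other genes passed the filter and 0 were called. These were Bpifb3 (16.56 ± 7.11 and 16.67 ± 8.27 CPM in wild-type and mutant), the endotoxin carrier Lbp (65.42 ± 19.67 and 60.63 ± 16.95) and the phospholipid carrier Pltp (66.36 ± 8.37 and 62.5 ± 10.79; SD, n = 4 each). Bpifb1, the long family member secreted with Bpifa1 in the airway, had 22 and 20 counts in all. Of 12 relatives below the filter 7 had fewer counts in the mutants and 4 more, among them the neighbours Bpifa5 (22 and 3) and Bpifa6 (13 and 0), whose groups overlapped. Of 6 other Reg lectins 0 passed the filter, and Reg3b, whose product resembles that of Reg3g, had 10 and 6 counts in all.

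Of 12 other genes of the Cyp2 cluster 2 passed the filter, Cyp2s1 and the olfactory enzyme Cyp2g1. Cyp2s1 had a log2 fold change of -0.44 (SE 0.19; edgeR adjusted p = 0.924) and Cyp2g1 means of 1.08 ± 0.532 and 0.769 ± 0.671 CPM (SD, n = 4 each). Below the filter, Cyp2b13 had 163 counts in mutant replicate 4 and 0 in the other 7 libraries. The carbonyl reductases Cbr1, Cbr3, Cbr4 and Dcxr all passed the filter, 0 were called and 1 was negative. Cbr1 had means of 24.23 ± 1.94 and 24.74 ± 3.74 CPM, Cbr3 of 2.65 ± 0.415 and 3.22 ± 0.888 CPM, and Cbr4 of 6.75 ± 0.549 and 7.45 ± 1.49 CPM (SD, n = 4 each). Dcxr, the next gene to Cbr2 at a distance of 2208 bases, had 5.04 ± 0.562 and 4.73 ± 0.521 CPM. Its wild-type and mutant libraries overlapped, unlike those of Cbr2. Over these families edgeR, DESeq2 and limma-voom called 0 genes, and 1 (Cyp2s1) had an unadjusted p below 0.05. With a negative sign, such a p was shared by 3.09% of all tested genes.

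Other genes beside the members were likewise not called. Of the 50 protein-coding genes nearest the members (5 on each side), 21 passed the filter, their log2 fold changes lay between -0.48 and 0.64, and 0 were called by edgeR, DESeq2 or limma-voom. An unadjusted p below 0.05 was reached by 2, Naalad2 beside Muc16 and Lrrtm4 at 1550005 bases from Reg3g, which both stood higher in the mutants. Of all 21392 tested genes, 1134 had such a p in either direction. Beside Bpifa1 only Bpifb3 passed, and beside Muc16 only Zfp558 and Naalad2. The tested genes beside Cyp2f2 were Cyp2g1, Egln2, Rab4b, Mia and 1 predicted gene. Those beside Cbr2 were Dcxr, Rac3, Lrrc45, Aspscr1, Rfng, Gps1, Dus1l and Fasn. The 5 Reg genes between 37602 and 92803 bases from Reg3g did not pass, and on its other side Lrrtm4, Gcfc2, Mrpl19, Eva1a and 1 predicted gene did. These lay between 1349044 and 3572171 bases from Reg3g, so its nearer surroundings were not tested.

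A contrast that did not choose the members was the form of the sample titles, which hold 1 number in replicates 1 and 4 of each genotype and 2 numbers in replicates 2 and 3. What the numbers stand for is not stated, so the contrast was taken only as a possible batch. With genotype in the model, edgeR called 2008 of 21392 genes, or 9.39%, and 0 of the 5 members. An unadjusted p below 0.05 was found for 26.9% of tested genes and for 0 of 5 members. The log2 differences (titles with 2 numbers minus those with 1) were 0.54 (SE 0.54, adjusted p = 0.572) for Bpifa1, 0.36 (SE 0.65, 0.766) for Cyp2f2, -0.12 (SE 0.19, 0.738) for Cbr2, 1.21 (SE 0.63, 0.270) for Muc16 and 1.06 (SE 0.68, 0.367) for Reg3g. No difference between title forms was detected for a member, and the SE, smallest for Cbr2, limits what could be.

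Within each title form, with 2 libraries per genotype, the members stood lower in the mutants. They were chosen on these same libraries, so this direction supports nothing further. The log2 CPM differences in titles with 1 number were -8.63 for Bpifa1, -3.74 for Cyp2f2, -1.30 for Cbr2, -3.44 for Muc16 and -1.30 for Reg3g. In titles with 2 numbers they were -8.60, -4.24, -1.48, -2.37 and -3.09 in the same order. Bpifa1 and Cbr2 were close between the title forms, and Reg3g had the widest gap. Whether the genotype differences differ between title forms was not tested.

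Muc16 and Reg3g ranked the wild-type libraries alike (replicates 2, 3, 4 and 1 from high to low), and the other members ranked them otherwise below replicate 2. Pearson's r of log2 CPM centred on each genotype's mean, over 8 libraries that differ in depth, was 0.57 between Bpifa1 and Cyp2f2 and 0.62 between Bpifa1 and Cbr2. It was -0.69 between Cbr2 and Reg3g and between -0.45 and 0.52 for the other pairs. By the same measure, over 15290 genes, the genes most like Bpifa1 were Usp29 (0.95), Hgh1 and Tnnt2 (0.94 each). Those most like Cyp2f2 were Myo7a (0.99), Itpr2 and Abcb1b (0.98 each), and those most like Cbr2 were Fut4 (0.98), Galr2 (0.95) and Rras (0.93). For Muc16 they included Polr3e (0.97) and Gpr179 (0.96) and for Reg3g Nek11 (0.97), Dpp4 and Rngtt (0.95 each). Of these 14 genes 0 are in the mucosal and epithelial lists, and Myo7a is in the inner ear list. Highest values among so many genes and 8 libraries are a description only.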

How the data were processed

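RNA of 8 inner ear samples (4 wild-type, 4 heterozygous mutant) was extracted with TRIzol and a silica column and made into total RNA libraries carrying unique molecular identifiers (per the labels' protocols). The submitters' processing notes name FastQC, STAR, HTSeq and mm10 but no version. The deposited values are raw counts per gene symbol. No source used here gives the annotation, the strand setting or whether the molecular identifiers were used. Of the 47517 symbols, 45138 have a single entry in GENCODE M21, from which coordinates and exon lengths were taken. Reads lost or gained where genes overlap or resemble each other would shift a member's count.

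Counts were tested with edgeR 4.0.16 in R 4.3.3 (TMM normalisation, default expression filter, robust quasi-likelihood F test, genotype as the only term), with Benjamini-Hochberg adjustment over 21392 genes and a call at 0.05. The SE was taken as the log2 fold change over the root of its F statistic. CPM used the normalised library sizes, and log2 CPM a prior count of 2. The fit was also run on simulated counts with known changes and no title form effect, and the outcome is not reported here. Groups came from the labels, and replicate numbers were given in accession order. Alternatives were other normalisations and filters, DESeq2 1.42.0, limma-voom (limma 3.58.1), title form added as a covariate, a block made of neighbouring title numbers, and each library left out in turn. The members and the gene lists were chosen with earlier results of these data known. Named genes were the members, the called genes and up to 4 genes of smallest p per list, tested relatives and neighbours, and the 3 genes most like each member (mean CPM of at least 1). Some genes that this rule names are not reported here. Marker genes at or near the floor and relatives below the filter were named by their role after their counts had been seen, as was Trp63.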

Additional observations from a re-analysis of the deposited data

Results flagged for a closer look

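Among the 31 genes whose fold change is printed, each group of 4 libraries was searched for 1 library far from the other 3, which chance gives in about 1 of 20 groups. Of 62 groups 4 held such a library, and none of them belonged to a member. Muc20 was at 0.388 CPM in mutant replicate 3 and at 0 in the other mutant libraries. Aqp3 was at 0.0878 CPM in mutant replicate 1 and at 0 in the other mutant libraries. Cldn3 was at 11.18 CPM in wild-type replicate 3 and between 10.31 and 10.44 CPM in the other wild-type libraries. Mpo, a neutrophil enzyme, was at 126.1 CPM in mutant replicate 2 and between 37.31 and 42.19 CPM in the other mutant libraries.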

How the results depend on the processing

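All 5 members stayed lower in the mutants in each of the 16 alternatives, with log2 fold changes of -9.32 to -8.41 for Bpifa1, -4.60 to -3.71 for Cyp2f2, -1.47 to -1.22 for Cbr2, -3.32 to -2.23 for Muc16 and -2.78 to -1.91 for Reg3g, a direction that their choice fixes. The counts of called genes moved more. DESeq2 called 19 genes higher, 49 lower and 11 listed genes lower, against 1, 8 and 3 in edgeR, and limma-voom called 5 higher. Title form as a covariate left 4 genes lower and 1 listed gene. Neighbouring title numbers as a replicate block gave 17 higher, 12 lower and 5 listed genes, and called 0 members. Libraries of the same number correlated by 0.14, 0.27, 0.20 and -0.04, and 3 of 4 wild-type libraries matched the mutant of their own number best, but replicate 4 did not, so the numbers were not taken to pair the samples. Leaving out 1 library gave 1 to 4 genes higher, 1 to 8 lower, 0 to 3 listed genes lower and 279 to 1705 genes called by title form. The lowest count of lower genes, 1, came without mutant replicate 2. Ltf ranged from -1.04 to 0.057 and Chil4 from -0.94 to 0.0584, and the title form difference from -0.12 to 1.01 for Bpifa1, -0.46 to 0.69 for Cyp2f2 and -0.29 to 0.0412 for Cbr2. Krt4 missed the threshold in limma-voom (adjusted p = 0.0910) and, with Krt14, under title form (0.0632 each). Without 1 library the adjusted p of Krt5, Krt14 and Krt4, where lost, was 0.0504 to 0.0905. Low counts in the mutant libraries limit the size of the differences of Krt4, Krt5, Krt14, Aqp3, Muc20 and Gabrp. The cause of these shifts was not tested.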
